A study of Homo sapiens with 6 samples.

Results

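The genes described here carry out glycolysis or belong to the response to low oxygen, and they were taken by gene name from a table of 62703 genes. Of 47 named genes 46 were found, 27 of them transporters, enzymes and kinases of glucose use (glycolysis members) and 19 of them subunits, regulators or targets of the hypoxia-inducible factor HIF (HIF members), while INSIG2-AS1 is not analysed here. RNA was sequenced from PANC-1, an established human pancreatic cancer cell line, in 3 samples without an edit (WT, DKK1-SE+/+) and 3 samples in which Cas9 had removed both copies of e1, a component enhancer of the super-enhancer DKK1-SE (DKK1-SE-KO, DKK1-SE-/-). The study obtained a single DKK1-SE-/- clone, so the 3 samples of that genotype are samples of one clone, and effects of the deletion and of the clone cannot be told apart. Both groups were grown in the same medium in a humidified CO2 incubator, and the labels name no low-oxygen treatment. The labels call the samples biological replicates without saying how they were separated, so p-values measure the spread between these samples.

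Glycolysis splits glucose into pyruvate, which is either reduced to lactate and exported or passed to the mitochondria, and several steps are carried out by isoenzymes encoded by different genes. HIF is a dimer of an oxygen-regulated alpha subunit and ARNT. In the presence of oxygen, prolyl hydroxylases of the EGLN family mark the alpha subunit for degradation through VHL, and when oxygen falls the dimer binds DNA and raises transcription of glucose transporters, glycolytic enzymes and other targets, a programme that is prominent in pancreatic cancer.

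Depth, as the sum of expected counts, ran to 21822314, 16475810 and 18803154 for WT replicates 1, 2 and 3 and to 17359835, 20098086 and 17804764 for the edited replicates in the same order. DKK1, the secreted WNT antagonist after which the super-enhancer is named, was measured at 229.2, 245.8 and 198.5 TPM (a transcript level scaled to library size and corrected for length) in DKK1-SE+/+ samples and at 66.8, 79.8 and 82.7 TPM in DKK1-SE-/- samples. Every DKK1-SE-/- sample was below every DKK1-SE+/+ sample, as the labels give it, and the log2 fold change was -1.45 (SE 0.11, edgeR quasi-likelihood test, Benjamini-Hochberg adjusted p = 6.16e-06). Fold changes here and in what follows are DKK1-SE-/- over DKK1-SE+/+ and come from the expected counts, and a gene was called at an adjusted p under 0.05 over all genes tested. The cells carried the keratins of an epithelial line, with KRT8 between 935.6 and 1668.2 TPM and KRT18 between 842.1 and 1279.5 TPM, and VIM between 2533.9 and 4521.9 TPM. These markers themselves differed between the genotypes, with KRT8, KRT18 and KRT19 called higher in DKK1-SE-/- cells at log2 fold changes of 0.86, 0.67 and 1.83 and VIM and EPCAM called lower at -0.47 and -0.67, while KRT7 was not called at 0.47. EPCAM was low throughout, between 1.70 and 4.81 TPM, and was called in only 5 of 15 alternatives (adjusted p up to 0.123), whereas the other calls of these markers were made in 15 of 15. Markers of acinar, endocrine, endothelial and fibroblast cells did not exceed 0.720 TPM in any sample, PTPRC and CD3E did not exceed 0.06 TPM, and CD68, which is not limited to leukocytes, was between 40.9 and 46.5 TPM in DKK1-SE+/+ samples and between 64.8 and 67.8 TPM in DKK1-SE-/- samples and was called higher (log2 fold change 0.76, SE 0.11, edgeR adjusted p = 4.07e-04). In RNA from whole cultures, fewer cells of a kind and less RNA per cell cannot be told apart.

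Of the 46 genes 43 passed the filter on low counts, and 17 of these were called (39.5%), against 5972 of 15179 tested genes (39.3%). Among the 27 glycolysis members, all of which were tested, 3 were higher and 6 were lower in DKK1-SE-/- cells. Among the 16 HIF members tested, 4 were higher and 4 were lower, while HIF3A, EGLN3 and CA9 were not tested because of low counts. EGLN3 was called higher in the fits that do test it (DESeq2 and edgeR with no filter), which it entered only through DKK1-SE-/- counts. Over all tested genes 19.8% were called higher and 19.5% lower, so in this fit the share of members called was close to the background and the members moved in both directions. The median log2 fold change was -0.10 for the glycolysis members and -0.15 for the HIF members, beside 0.03 for all tested genes. The study's methods word their limits as a p-value under 0.05 and an absolute fold change of 1.2 or more. The p-value was taken here as unadjusted. With 1.2 taken as a log2 fold change in either direction, the members past the limits were ALDOC, DDIT4 and PDK4, against 8.66% of all tested genes, and with 1.2 taken on the linear scale, a reading added after the data had been seen, 23 members were past them, against 47.6% of all tested genes. TPM did not overlap between the genotypes for 23 of the 43 tested members and for 44.2% of all tested genes.

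**Figure D1:**
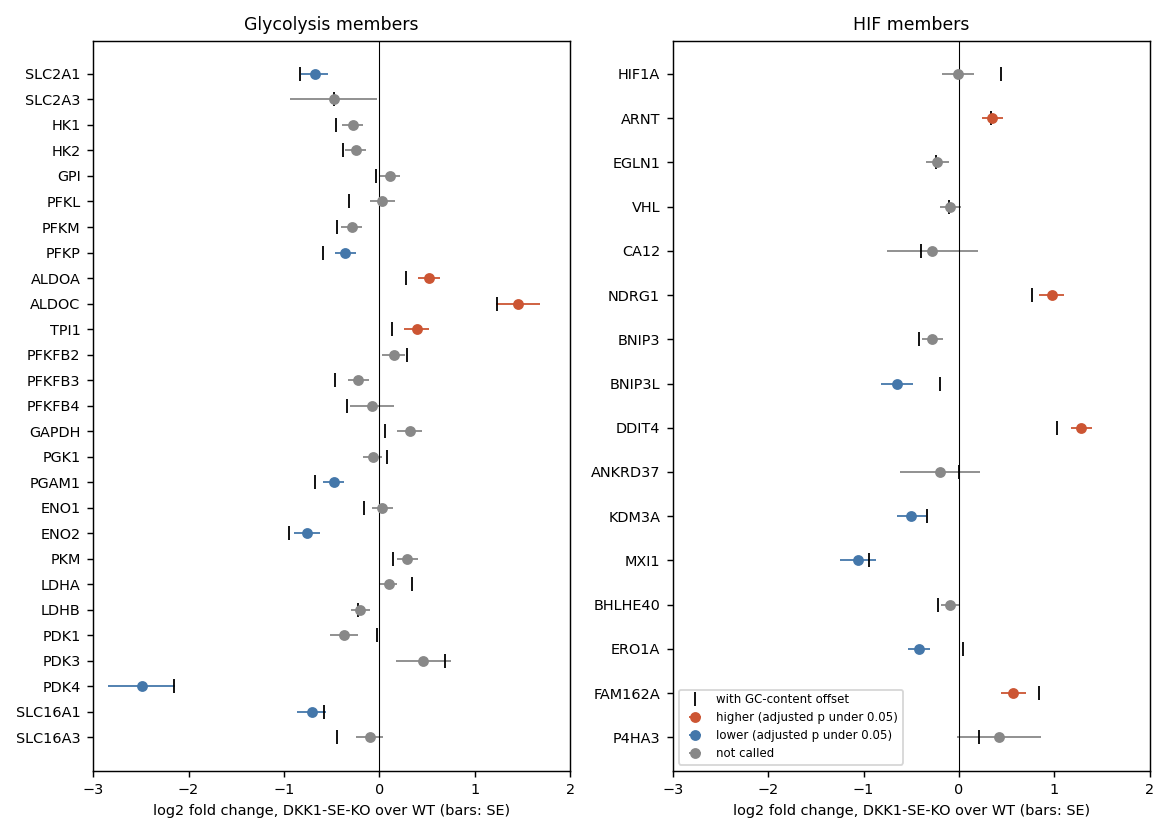
The log2 fold change of each tested member (DKK1-SE-KO over WT, x axis) is drawn with its standard error, glycolysis members on the left and HIF members on the right. Colour marks the call and the black tick gives the value with a GC-content offset, which moved HIF1A from -0.01 to 0.44 and ERO1A from -0.42 to 0.04.

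The libraries differed in how counts depended on base composition. Across tested genes, which are not independent replicates, Spearman's rho between the log2 fold change and the GC content of the longest transcript was 0.404. The deviation of each library from the mean of the 6 had a rho with GC content of -0.419, -0.403 and -0.214 in DKK1-SE+/+ replicates 1, 2 and 3, and of 0.588, 0.370 and -0.143 in DKK1-SE-/- replicates 1, 2 and 3. The median GC content was 53.0% for the glycolysis members and 46.3% for the HIF members, beside 48.2% for all tested genes. With an offset for GC content fitted in each library, 13 glycolysis members were lower and 4 higher, and 3 HIF members were lower and 5 higher. In that fit 58.1% of the tested members were called, and 48.1% of the glycolysis members were lower, beside 41% of all tested genes called and 21.0% lower, so the closeness to the background given above does not hold with the offset, and the value with the offset is given below for each member whose call it changed. The part of base composition in the differences was otherwise not tested.

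Glucose enters the cell through SLC2A1, the widely expressed transporter GLUT1, which was measured at 36.4, 43.7 and 58.7 TPM in DKK1-SE+/+ samples and at 36.2, 32.5 and 17.8 TPM in DKK1-SE-/- samples. The groups did not overlap, but the highest DKK1-SE-/- sample lay just under the lowest DKK1-SE+/+ sample, and the lowest level was in DKK1-SE-/- replicate 3. SLC2A1 had a log2 fold change of -0.68 (SE 0.14, edgeR adjusted p = 0.00344), and the call was lost when limma was run on log2 TPM although the log2 fold change there was -0.70 and -0.72 (adjusted p = 0.0801 with a pseudocount of 1, with 2.76e-06 to 0.0812 over all alternatives). SLC2A3, the high-affinity transporter GLUT3, stayed under 1 TPM in every sample, with 4 to 14 expected counts, and was not called. The 3 processed copies named after it had 242.8 expected counts over the samples, more than the 60 of the gene, so the division of reads between them bears on its value.

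Of the 9 members that take glucose to triose phosphate, 3 were higher and 1 was lower (44.4% called, beside 39.3% of all tested genes). ALDOA, the main aldolase of these cells, was between 1052.1 and 1139.7 TPM in DKK1-SE+/+ samples and between 1351.7 and 1585.0 TPM in DKK1-SE-/- samples, with a log2 fold change of 0.52 (SE 0.12, edgeR adjusted p = 0.00618). With the GC-content offset it was 0.28 and still called (adjusted p = 0.0132), and the call was lost when the replicate block was added to that offset (adjusted p = 0.0593). ALDOC, the aldolase known from brain, was measured at 1.42, 1.83 and 1.49 TPM in DKK1-SE+/+ samples and at 4.20, 3.73 and 4.72 TPM in DKK1-SE-/- samples. All 3 DKK1-SE-/- samples were above all DKK1-SE+/+ samples, and the log2 fold change of 1.45 (SE 0.23, edgeR adjusted p = 6.91e-04) rested on 27 to 34 expected counts in one group and 72 to 84 in the other. ALDOC overlaps RSKR on the same strand, which had a mean of 219.7 expected counts over the samples, so how the authors' counting divided reads between them bears on the value.

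TPI1, which interconverts the triose phosphates, was between 491.4 and 507.3 TPM in DKK1-SE+/+ samples and between 520.0 and 633.2 TPM in DKK1-SE-/- samples. Its log2 fold change was 0.39 (SE 0.13, edgeR adjusted p = 0.0292), and it was called in 4 of 15 alternatives, with 0.13 under the GC-content offset. Without 1 library its adjusted p was 0.0926, 0.109 and 0.1 for DKK1-SE+/+ replicates 1, 2 and 3 and 0.0643 and 0.118 for DKK1-SE-/- replicates 1 and 2, and over all alternatives it ran from 9.53e-04 to 0.363. PFKP, the platelet form of phosphofructokinase and the most abundant of the family here, was between 381.9 and 427.0 TPM in DKK1-SE+/+ samples and between 263.3 and 287.2 TPM in DKK1-SE-/- samples. The groups were apart by more than their spread, the log2 fold change was -0.36 (SE 0.11, edgeR adjusted p = 0.0201) and -0.59 with the GC-content offset, and the call was lost with the replicate block (0.0722) and without DKK1-SE+/+ replicate 2 (0.0784), DKK1-SE+/+ replicate 3 (0.0802) or DKK1-SE-/- replicate 2 (0.0571), in a range of adjusted p from 8.88e-05 to 0.0802 over the alternatives.

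The hexokinases HK1 and HK2, which trap glucose as its phosphate, were not called, with log2 fold changes of -0.28 and -0.25. With the GC-content offset both were called lower, at -0.45 and -0.38. PFKM, the muscle form of phosphofructokinase, went from -0.29 to -0.44 and was then called, and PFKL, the liver form, went from 0.03 to -0.32 and was then called lower. HK1 and PFKM were also called without DKK1-SE-/- replicate 1 (-0.39 and -0.32), and HK2 and PFKM without DKK1-SE-/- replicate 3 (-0.33 and -0.27). With library size alone HK1, HK2 and PFKM were called as well, and HK1 also with limma on log2 TPM (-0.46 and -0.47). GPI, the isomerase between them, had a log2 fold change of 0.11 (-0.04 with the GC-content offset) and was not called in any alternative.

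PFKFB2, PFKFB3 and PFKFB4 make and break fructose 2,6-bisphosphate, the activator of phosphofructokinase, and none of them was called. Their levels were at most 21.8 TPM in any sample. The log2 fold changes were 0.15, -0.22 and -0.08, and with the GC-content offset PFKFB2 was called higher at 0.29 and PFKFB3 lower at -0.47. PFKFB3 was also called with library size alone, at -0.30, and without DKK1-SE-/- replicate 1, at -0.31.

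Of the 6 members from GAPDH to pyruvate kinase, 2 were lower and none was higher (33.3% called, beside 39.3% of all tested genes). GAPDH, the dehydrogenase that is also the reference transcript of the study's qRT-PCR, was measured at 2741.0, 2625.6 and 2691.8 TPM in DKK1-SE+/+ samples and at 3069.1, 3266.4 and 2633.8 TPM in DKK1-SE-/- samples. DKK1-SE-/- replicates 1 and 2 lay above all DKK1-SE+/+ samples and replicate 3 lay among them. GAPDH had a log2 fold change of 0.32 (SE 0.13, edgeR adjusted p = 0.0618), it was called with no filter (adjusted p = 0.0321) and, at 0.43, without DKK1-SE-/- replicate 3, and it was 0.06 with the GC-content offset.

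PGAM1, the phosphoglycerate mutase, was between 412.1 and 430.3 TPM in DKK1-SE+/+ samples and between 257.0 and 283.0 TPM in DKK1-SE-/- samples. It had a log2 fold change of -0.48 (SE 0.11, edgeR adjusted p = 0.00538), and PGAM1 was called in 15 of 15 alternatives. ENO2, the neuronal enolase, was measured at 13.9, 13.6 and 16 TPM in DKK1-SE+/+ samples and at 9.29, 6.27 and 7.85 TPM in DKK1-SE-/- samples. The groups did not overlap, the log2 fold change was -0.76 (SE 0.14, edgeR adjusted p = 0.00191), and this call too was made in 15 of 15 alternatives. LRRC23 overlaps ENO2 on the same strand with a mean of 109.7 expected counts.

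ENO1, PGK1 and PKM, the abundant enzymes of the same stretch, had log2 fold changes of 0.03, -0.07 and 0.29 (-0.16, 0.08 and 0.14 with the GC-content offset) and were not called. PKM was called without DKK1-SE-/- replicate 3, at 0.37. The summed TPM of the 15 enzymes from hexokinase to pyruvate kinase was 10465.3, 10448.4 and 10628.6 in DKK1-SE+/+ samples and 11407.1, 11144.3 and 10045.6 in DKK1-SE-/- samples. The groups overlapped, and the lowest sum of all samples was in DKK1-SE-/- replicate 3. Processed copies of these enzymes took few counts, with 0.0456% of the GAPDH count for the 65 copies named after GAPDH and 0.320% of the PGAM1 count for the 13 named after PGAM1.

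LDHA, the lactate dehydrogenase subunit that favours lactate, was measured at 751.7, 847.8 and 761.6 TPM in DKK1-SE+/+ samples and at 759.8, 698.7 and 907.8 TPM in DKK1-SE-/- samples. LDHB, the subunit that favours pyruvate, was measured at 541.8, 517.9 and 503.3 TPM in DKK1-SE+/+ samples and at 345.9, 410.4 and 466.6 TPM in DKK1-SE-/- samples. The LDHA levels overlapped, while every DKK1-SE-/- sample was below every DKK1-SE+/+ sample for LDHB. The log2 fold changes were 0.10 (SE 0.09, edgeR adjusted p = 0.401) and -0.20 (SE 0.10, edgeR adjusted p = 0.154), and neither was called. With the GC-content offset LDHA was called higher at 0.34 and LDHB lower at -0.22, and LDHB was also called without DKK1-SE-/- replicate 3 at -0.27. The LDHB call under the offset was lost when the replicate block was added to it (-0.22, edgeR adjusted p = 0.109).

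Pyruvate dehydrogenase kinases close the entry of pyruvate into the mitochondria. PDK4, the form induced by fasting and fatty acids, was measured at 0.960, 1.33 and 1.03 TPM in DKK1-SE+/+ samples and at 0.440, 0.220 and 0.260 TPM in DKK1-SE-/- samples. These levels came from 56, 57 and 50 expected counts in DKK1-SE+/+ samples and 5, 13 and 9 in DKK1-SE-/- samples, so the gene was near the limit of detection in the latter. PDK4 passed the filter on low counts only through its DKK1-SE+/+ samples. The groups did not overlap, and the log2 fold change was -2.49 (SE 0.35, edgeR adjusted p = 3.74e-04), with values from -2.77 to -0.69 over the alternatives, the smallest change being that of log2(TPM + 1), a scale that understates the change of low genes. PDK1, a HIF target, and PDK3 were not called, at -0.37 and 0.46, and PDK1 was called without DKK1-SE-/- replicate 3 at -0.43. With the GC-content offset they were at -0.02 and 0.69 and were not called.

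Lactate leaves the cell through monocarboxylate transporters. SLC16A1, the widely expressed form MCT1, was measured at 27.6, 27.3 and 26.2 TPM in DKK1-SE+/+ samples and at 10.9, 15.2 and 20.3 TPM in DKK1-SE-/- samples. The groups did not overlap, and the spread was wider in DKK1-SE-/- samples. This gave a log2 fold change of -0.71 (SE 0.15, edgeR adjusted p = 0.00387). SLC16A3, the hypoxia-inducible form MCT4, was more abundant, between 224.7 and 414.9 TPM, and was not called at -0.10, but was called lower at -0.44 with the GC-content offset.

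**Figure D2:**
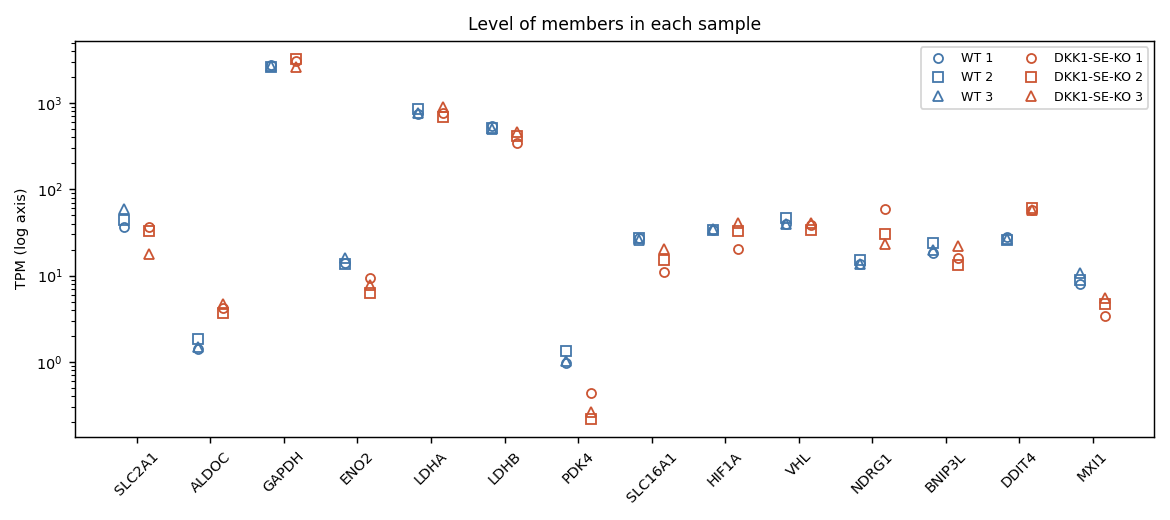
The level of each member given in full is drawn for each of the 6 samples as TPM on a log axis, with WT in blue, DKK1-SE-KO in red and symbols by replicate number. DDIT4 and ALDOC stand apart upwards and PDK4, ENO2 and MXI1 downwards, while HIF1A spreads from 20.3 to 40.6 TPM in DKK1-SE-KO samples around WT values of 34.0 to 34.8 TPM.

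The share of each isoenzyme in the summed TPM of the members of its family does not depend on how libraries are scaled, and 11 shares were compared by two-sided exact permutation tests over samples, where 3 samples against 3 cannot give a p below 0.1. The groups did not overlap for 6 of them, of which PDK3 and PDK4 are shares of one sum. Such shares were not computed for other genes, and the TPM of single genes did not overlap for 44.2% of all tested genes. LDHB made up 41.9%, 37.9% and 39.8% of lactate dehydrogenase transcripts in DKK1-SE+/+ samples and 31.3%, 37.0% and 33.9% in DKK1-SE-/- samples, with means of 39.9% ± 1.98 and 34.1% ± 2.86 (SD, n = 3 each, exact permutation p = 0.1). PFKP fell from a mean share of 85.6% ± 0.935 to 83.1% ± 0.774, and ENO2 from 0.519% ± 0.0481 to 0.306% ± 0.0580, whereas ALDOC went from 0.145% ± 0.0212 to 0.295% ± 0.0435 (SD, n = 3, exact permutation p = 0.1 for each). Among the kinases PDK1, PDK3 and PDK4, without PDK2, which is not a member, PDK4 took 19.5% ± 3.12 in DKK1-SE+/+ and 9.73% ± 4.03 in DKK1-SE-/- samples and PDK3 took 11.4% ± 2.29 and 19.8% ± 4.56, which are shares of a sum of at most 7.28 TPM. PDK2 alone was between 17.1 and 22.1 TPM, and with it in the sum, an alternative added after the data had been seen, PDK4 took 4.29% ± 0.705 and 1.44% ± 0.635 and PDK3 took 2.49% ± 0.421 and 2.91% ± 0.108 (SD, n = 3). The shares of SLC2A3, HK1, PFKM, PDK1 and SLC16A3 overlapped between the groups. None of these shares has a p that could pass 0.05, and a share that rises can reflect a fall of its partner.

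**Figure D3:**
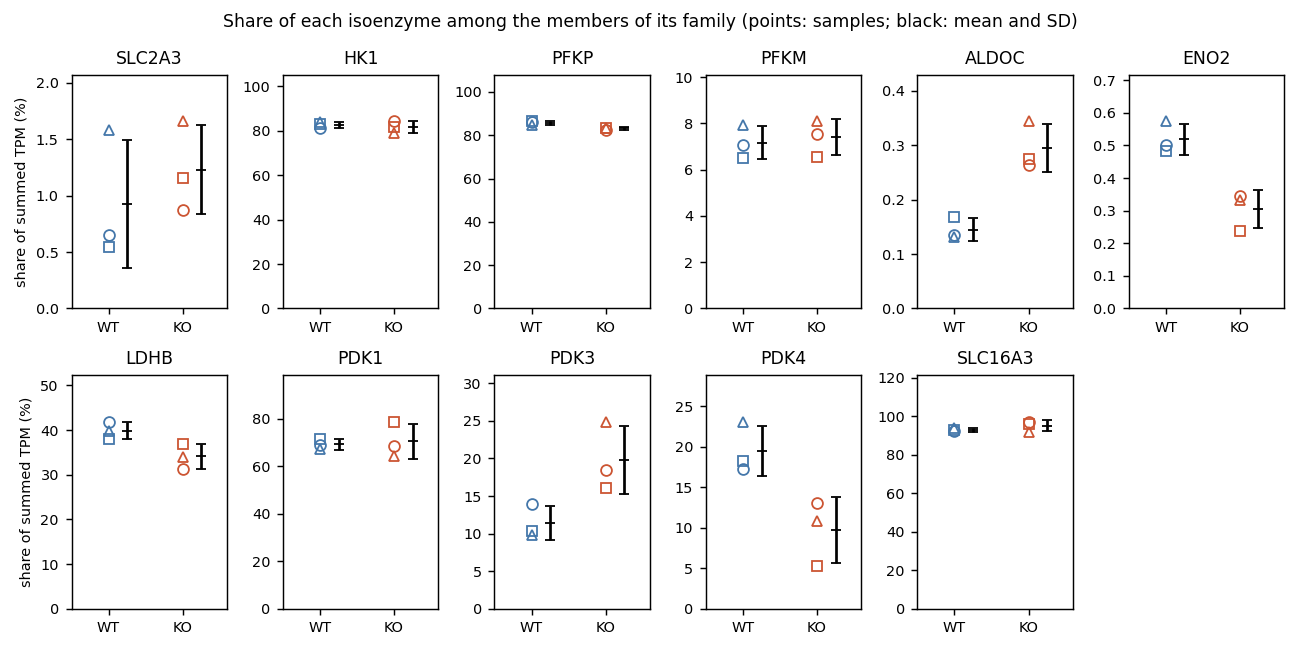
Each panel gives the share of one isoenzyme in the summed TPM of the members of its family in percent (without PDK2 for the kinases) (y axis from 0) for WT (blue) and DKK1-SE-KO (red) samples, with the mean and SD in black. LDHB, PFKP, ENO2 and PDK4 are lower and ALDOC and PDK3 higher in every DKK1-SE-KO sample.

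Of the HIF subunits, HIF1A, the oxygen-regulated one, was measured at 34.0, 34.0 and 34.8 TPM in DKK1-SE+/+ samples and at 20.3, 32.5 and 40.6 TPM in DKK1-SE-/- samples. The 3 DKK1-SE-/- samples lay below and above the narrow DKK1-SE+/+ range. The log2 fold change was -0.01 (SE 0.17, edgeR adjusted p = 0.965), and with the GC-content offset it was 0.44 and called higher, HIF1A having a GC content of 36.4%. The transcript level does not show the level of the protein, which oxygen controls after translation. ARNT, the constitutive partner, was between 13.2 and 17.6 TPM in DKK1-SE+/+ samples and between 15.3 and 19.3 TPM in DKK1-SE-/- samples, with a log2 fold change of 0.35 (SE 0.11, edgeR adjusted p = 0.0230). The call of ARNT was made in 7 of 15 alternatives and was lost without DKK1-SE+/+ replicate 1, 2 or 3 (adjusted p = 0.121, 0.109 and 0.0818, with 0.00598 to 0.401 over all alternatives). HIF3A had 0 to 2 expected counts per sample.

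VHL, which marks hydroxylated HIF for degradation, was measured at 39.4, 46.6 and 40 TPM in DKK1-SE+/+ samples and at 38.3, 34.1 and 40.5 TPM in DKK1-SE-/- samples. The groups overlapped and the log2 fold change was -0.09 (SE 0.11, edgeR adjusted p = 0.575). The prolyl hydroxylase EGLN1 was not called at -0.23, but was called at -0.33 without DKK1-SE-/- replicate 3. EGLN3, a hydroxylase that HIF itself induces, had 0 expected counts in the DKK1-SE+/+ samples and 6, 4 and 8 in the DKK1-SE-/- samples. Below the filter of the main fit, it was called higher by DESeq2 (adjusted p = 0.0152) and by edgeR with no filter (adjusted p = 0.00349). EGLN3 entered those fits only through its DKK1-SE-/- counts, so these p-values are not separate support for a difference. SPTSSA overlaps EGLN3 on the same strand with a mean of 557.1 expected counts, so these few reads depend on how the counting divided them.

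Of the 12 HIF targets tested, 3 were higher and 4 were lower (58.3% called, beside 39.3% of all tested genes). DDIT4, an inhibitor of mTORC1 signalling also known as REDD1, was measured at 28.4, 26.2 and 26.8 TPM in DKK1-SE+/+ samples and at 57.1, 61.5 and 57.7 TPM in DKK1-SE-/- samples. Every DKK1-SE-/- sample had more than any DKK1-SE+/+ sample, and the log2 fold change was 1.28 (SE 0.11, edgeR adjusted p = 1.74e-05), the smallest p among the members. NDRG1, a stress-responsive gene linked to differentiation, was measured at 13.7, 15.2 and 13.8 TPM in DKK1-SE+/+ samples and at 59.8, 30.6 and 23.3 TPM in DKK1-SE-/- samples. On the scale of normalised CPM (depth-scaled counts) its levels were 20.5, 19.4 and 20 in DKK1-SE+/+ samples and 41.9, 42.7 and 32.4 in DKK1-SE-/- samples, so the TPM values spread more than the counts. NDRG1 had a log2 fold change of 0.97 (SE 0.13, edgeR adjusted p = 3.31e-04). FAM162A, a nuclear gene for a mitochondrial protein, was between 25.4 and 28.8 TPM in DKK1-SE+/+ samples and between 35.8 and 40.1 TPM in DKK1-SE-/- samples (log2 fold change 0.57, SE 0.13, edgeR adjusted p = 0.00541).

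MXI1, a partner of MAX that opposes MYC, was measured at 7.92, 8.79 and 10.7 TPM in DKK1-SE+/+ samples and at 3.44, 4.74 and 5.50 TPM in DKK1-SE-/- samples. The groups did not overlap and the log2 fold change was -1.06 (SE 0.19, edgeR adjusted p = 0.00131). BNIP3L, a mitophagy receptor, was measured at 18.5, 23.7 and 19.8 TPM in DKK1-SE+/+ samples and at 16.2, 13.2 and 21.8 TPM in DKK1-SE-/- samples. Its TPM overlapped between the groups, whereas its normalised CPM (depth-scaled counts) were 38.7, 38.5 and 38.3 in DKK1-SE+/+ samples and 19.8, 21.7 and 31.9 in DKK1-SE-/- samples. BNIP3L had a log2 fold change of -0.65 (SE 0.17, edgeR adjusted p = 0.01) from the counts, and -0.20 and not called with the GC-content offset, nor was it called with limma on log2 TPM. PNMA2 overlaps BNIP3L on the other strand with a mean of 1442.6 expected counts. Its mean TPM was 32.6 in DKK1-SE+/+ and 15.2 in DKK1-SE-/- samples, so the strand setting of the counting bears on BNIP3L.

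KDM3A, a histone demethylase, was between 13.1 and 13.5 TPM in DKK1-SE+/+ samples and between 7.42 and 11.8 TPM in DKK1-SE-/- samples, with a log2 fold change of -0.50 (SE 0.15, edgeR adjusted p = 0.0193). The call was lost with limma on log2 TPM (0.117 and 0.113) and without DKK1-SE+/+ replicate 2 (0.0664) or DKK1-SE-/- replicate 2 (0.0736), in a range of adjusted p from 3.92e-04 to 0.117. ERO1A, an oxidase of the endoplasmic reticulum, was between 31.1 and 36.7 TPM in DKK1-SE+/+ samples and between 21.4 and 27.3 TPM in DKK1-SE-/- samples, with a log2 fold change of -0.42 (SE 0.12, edgeR adjusted p = 0.0190) that was 0.04 with the GC-content offset. Its call was lost without DKK1-SE+/+ replicate 2 (0.0848), DKK1-SE+/+ replicate 3 (0.0505) or DKK1-SE-/- replicate 2 (0.0759), in a range from 5.46e-04 to 0.752. BNIP3, BHLHE40, ANKRD37, CA12 and P4HA3 were not called, at -0.28, -0.09, -0.20, -0.28 and 0.42, and BNIP3 was called lower at -0.42 with the GC-content offset, and also with library size alone and with limma on log2 TPM (-0.49 and -0.50). The values of ANKRD37, CA12 and P4HA3 rested on 9 to 24, 5 to 17 and 15 to 53 expected counts per sample. CA9, the carbonic anhydrase widely used as a marker of hypoxia, had at most 1 expected count in any sample.

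The letters ACGTG, the core that HIF binds, were searched on both strands in the RefSeq promoters of build GRCh38.p14, which run from 250 bases before to 50 after each annotated start. The E-box CACGTG contains the same letters, so a match does not name the factor. Promoters were matched for 39 of the 46 genes, 71 in all because some genes have several starts, and 28 of these held ACGTG (39.4%), against 21.4% of all 35116 promoters. The members' promoters had a median GC content of 68.0%, beside 58.7% for all. Of the promoters of members called higher 7 of 9 held the letters, of those called lower 4 of 14, and of tested members not called 16 of 43, counts in which the starts of one gene are not independent. With GCGTG, another form of the core, added to the search these were 7 of 9 (3 of the 9 being starts of ALDOA), 9 of 14 and 29 of 43, so the contrast between the directions depends on the letters chosen. A few of these promoters, of the most changed targets in each direction and of ALDOC, are printed with ACGTG or its reverse complement in capitals. DDIT4 lies on the plus strand (chr10:72273674-72273973), MXI1 on the plus strand at one of its 3 starts (chr10:110209981-110210280), and ALDOC on the minus strand (chr17:28576846-28577145).
DDIT4: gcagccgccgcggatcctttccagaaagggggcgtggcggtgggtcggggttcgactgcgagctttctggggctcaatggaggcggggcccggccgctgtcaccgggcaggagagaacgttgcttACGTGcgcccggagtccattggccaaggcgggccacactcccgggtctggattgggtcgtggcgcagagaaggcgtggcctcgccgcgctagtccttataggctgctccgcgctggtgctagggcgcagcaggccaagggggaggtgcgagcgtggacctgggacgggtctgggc
MXI1: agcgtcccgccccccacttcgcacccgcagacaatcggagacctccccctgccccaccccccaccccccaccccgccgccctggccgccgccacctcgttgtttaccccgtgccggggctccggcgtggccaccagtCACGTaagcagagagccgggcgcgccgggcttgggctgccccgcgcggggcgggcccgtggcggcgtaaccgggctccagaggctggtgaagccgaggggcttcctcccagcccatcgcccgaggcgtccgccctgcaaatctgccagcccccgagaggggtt
ALDOC: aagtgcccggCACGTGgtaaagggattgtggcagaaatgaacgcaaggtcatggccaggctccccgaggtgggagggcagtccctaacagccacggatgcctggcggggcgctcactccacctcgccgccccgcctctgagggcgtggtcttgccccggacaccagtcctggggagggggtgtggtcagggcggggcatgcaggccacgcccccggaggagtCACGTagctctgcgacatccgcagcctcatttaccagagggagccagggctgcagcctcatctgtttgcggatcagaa
DDIT4, which was higher, and MXI1, which was lower, each held 1 match in these windows, and ALDOC held 3, of which a pair overlapped in a CACGTG. The other 2 starts of MXI1 held none. A match describes the letters of the window and not binding.

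Of the tested members 7 lie on chromosome 10, which also carries DKK1 and the deleted enhancer, and the levels of their neighbours were compared after the data had been seen. Among the 588 tested genes on chromosome 10 the median log2 fold change was -0.32 and 67.9% were below 0, against 47.9% of all tested genes. Of the 7 members there, 6 were below 0, with 3 called lower (MXI1, PGAM1 and PFKP) and 1 called higher (DDIT4). Over all tested genes 19.5% were called lower and 19.8% higher. The median over tested genes starting within 5 Mb was -0.68 for MXI1 (25 genes), -0.49 for PGAM1 (83 genes) and -0.28 for PFKP (29 genes), near the -0.48 and -0.36 of the latter pair. With the GC-content offset PGAM1 was at -0.67 beside a neighbour median of -0.53, and PFKP at -0.59 beside -0.22, so PFKP was then farther from its neighbours. Around DDIT4 it was 0.21 (89 genes), far under the 1.28 of the gene. On other chromosomes BNIP3L, at -0.65, had a neighbour median of -0.75, KDM3A, at -0.50, had -0.51, and FAM162A, at 0.57, had 0.70. Under that offset they were -0.20 beside -0.86 for BNIP3L, -0.34 beside -0.50 for KDM3A and 0.84 beside 0.82 for FAM162A, so the nearness of BNIP3L was lost.

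By contrast, PDK4 (-2.49) had neighbours at a median of 0.14, ENO2 (-0.76) at 0.23, SLC2A1 (-0.68) at 0.09, SLC16A1 (-0.71) at -0.07 and ALDOC (1.45) at 0.14. Across the 43 members, which share libraries and in part neighbours, Spearman's rho between a member and its neighbour median was 0.411, and, by alternatives added after the data had been seen, 0.449 with neighbours within 2 Mb and 0.280 with the GC-content offset. The part of the neighbourhood in these results was not tested.

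Other genes of the same pathways were taken from lists. Of 40 other glycolysis and pyruvate genes 25 were tested, of which 4 were higher and 6 were lower, with a median of 0.04. The transporter SLC2A6 was higher at 1.09, and SLC2A12, SLC2A13 and the muscle enolase ENO3 were lower at -1.66, -1.11 and -1.11. SLC16A7, a monocarboxylate transporter at no more than 0.410 TPM, was lower at -1.91, but its TPM overlapped between the groups and the call was lost with limma on log2 TPM (-0.10 and -0.44), with the GC-content offset and replicate block (-1.40) and without DKK1-SE+/+ replicate 2 (-1.45). SLC16A7 passed the filter on low counts only through its DKK1-SE+/+ samples. Of 12 other HIF machinery genes, all tested, 6 were higher and 1 was lower (58.3% called, beside 39.3% of all tested genes), with a median of 0.28. With the GC-content offset 2 of the 6 higher calls were lost. In that fit 5 of the 12 were called (41.7%, beside 41% of all tested genes), so the share was then close to the background. ARNT2, the neural relative of ARNT, was at 0.02, 0.07 and 0.05 TPM in DKK1-SE+/+ samples and at 1.09, 0.590 and 0.390 TPM in DKK1-SE-/- samples, a log2 fold change of 3.39 from a very low level. ARNT2 passed the filter on low counts only through its DKK1-SE-/- samples (31, 42 and 18 expected counts, against 2, 2 and 5).

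Of 32 other HIF target genes 31 were tested, of which 6 were higher and 10 were lower, with a median of 0.01. This was 51.6% called, beside 39.3% of all tested genes. HILPDA, a lipid droplet protein, was higher at 1.15, LOX, which crosslinks collagen, at 1.24, and the chemokine receptor CXCR4 at 2.95, the last from 0.280, 0.230 and 0.110 TPM to 1.5, 1.38 and 1.45 TPM. CXCR4 passed the filter on low counts only through its DKK1-SE-/- samples (31, 34 and 29 expected counts, against 7, 4 and 2). With the GC-content offset 1 of the 6 higher and 4 of the 10 lower calls were lost, and 8 were higher and 7 lower. Calls in both directions were also the rule over all tested genes, at 19.8% higher and 19.5% lower.

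GAPDH was also set beside other transcripts used as references in qRT-PCR. YWHAZ was called higher, at 0.36, and HPRT1 and TBP lower, at -0.45 and -0.41. ACTB, B2M, PPIA, RPLP0, GUSB and SDHA were not called, at 0.20, -0.16, 0.19, -0.12, 0.01 and -0.24. YWHAZ lost its call without DKK1-SE+/+ replicate 1, 2 or 3 (0.30, 0.39 and 0.34), as did TBP (-0.43, -0.42 and -0.41), and both lost it with the replicate block, YWHAZ also with library size alone and with limma on log2 TPM. HPRT1 was at -0.16 and not called with the GC-content offset, and SDHA was called lower with it (-0.36), with library size alone, with limma and without DKK1-SE-/- replicate 1 (-0.31).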

How the data were processed

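The authors sequenced RNA of PANC-1 cells from stranded mRNA libraries in 3 DKK1-SE+/+ and 3 DKK1-SE-/- samples, and the data were processed on a commercial platform. The build hg38 is from the submitters' processing notes, and the aligner, the counting program and its strand setting are not given in the sources used here. That setting bears on members overlapped on the other strand by expressed genes. Besides BNIP3L these include PFKM (SENP1), PFKFB2 (YOD1), SLC16A3 (CSNK1D), ANKRD37 (UFSP2) and P4HA3 (PPME1). The authors deposited an expected count per gene and sample, which is not normalized (32.3% of nonzero values were not whole), and TPM, which they scaled within each library. The deposited table also holds the authors' mean TPM per group and their own comparison as a fold ratio, a log2 fold change and p-values, and none of these columns was used. The gene length in the deposited table was not used either.

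Expected counts were rounded, and edgeR 4.0.16 was run in R 4.3.3 with filterByExpr by group (minimum count 10), TMM factors and the quasi-likelihood F test, and p-values were adjusted by Benjamini-Hochberg over 15179 genes. The standard error was the absolute log2 fold change divided by the square root of F. Alternatives used RLE factors, library size alone, DESeq2 1.42.0, no filter, limma 3.58.1 (trend option) applied to log2(TPM + 1) or log2(TPM + 0.1), the replicate number as a block, a GC-content offset per library in 40 bins with and without that block, and each sample left out. GC content and positions came from GENCODE version 44, with GC content for 99.92% of tested genes. The fits were tested on simulated data, where limma on log2(TPM + 1) recovered fewer of the changes put in than edgeR and DESeq2, and the bar for its recovery was lowered after that was seen. Exact tests used scipy 1.17.1 in Python 3.11.15.

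Genes were matched by gene name. TPM in every sample is given for members with an adjusted p under 0.05 that changed by 0.58 or more on the log2 scale, and for GAPDH, HIF1A, VHL, LDHA, LDHB and DKK1. From the lists of other genes those with an adjusted p under 0.05 that changed by 1 or more on that scale were named, at most 8 per list, and reference genes and epithelial markers were named whether or not they changed. PDK2 was named after its values were seen. A few genes of the marker and reference lists are not reported here. The members and lists were chosen with earlier results of these data known.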

Additional observations from a re-analysis of the deposited data

How the results depend on the processing

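The 17 called members kept their call and direction in 12 to 17 cases under each of 15 alternatives. ALDOC, DDIT4, ENO2, FAM162A, MXI1, NDRG1, PDK4, PGAM1 and SLC16A1 were called in 15 of 15. The number of tested genes called was 4125 to 6545 with all samples and 4095 to 7558 with 1 sample left out, beside 5972. EGLN3, untested in the main fit and with counts only in DKK1-SE-/- samples, was called higher by DESeq2, where HIF members higher were 5 beside 4, and with no filter. With limma, 35.8% and 36.2% of calls were higher, beside 50.5%, and with library size alone 43.5%, where the median of all tested genes was -0.04, and -0.08 and -0.11 with limma. Glycolysis members called lower were 10 with library size alone, 13 with the GC-content offset and 12 with that offset and the replicate block, beside 6, while all tested genes called lower were 21.3%, 21.0% and 18.8%, beside 19.5%. Their median was -0.18 with library size alone, -0.22 and -0.25 with limma, and -0.32 with either GC fit, beside -0.10. The HIF median was -0.22 with library size alone and -0.05 with either GC fit, beside -0.15. PFKL was -0.32 with either GC fit, HIF1A was 0.44 and 0.43, and ERO1A was 0.04 in both. Members past the study's limits, with 1.2 read as a log2 fold change, were 1 with limma on log2(TPM + 1), beside 3, and 23 with 1.2 read on the linear scale as the methods word it. From expected counts the share of PDK4 differed by -15.0 points, beside -9.81, and that of SLC16A3 by 4.60, beside 1.99. With other family genes of the lists in the sum, chosen after the data had been seen, the differences of PDK1, PDK3 and PDK4 were -4.40, 0.424 and -2.85 points, beside 1.39, 8.42 and -9.81, and PDK1 overlapped in both. With GCGTG added, 66.2% of members' promoters held a match, and 48.4% of all, and by call 77.8% of higher, 64.3% of lower and 67.4% of uncalled members' promoters, beside 77.8%, 28.6% and 37.2%. The cause of these shifts was not tested.

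With 1 sample left out, glycolysis members higher were 2 to 5 and lower 5 to 10, HIF members higher 3 to 4 and lower 2 to 5, the glycolysis median was -0.23 to -0.05 and the HIF median -0.24 to -0.06. Same-numbered samples did not deviate together (correlations of -0.123, -0.0738 and -0.109), and they were not treated as pairs in the main fit. The labels do not say whether they were prepared together, and these correlations cannot settle it. With the replicate block 4981 genes were called, glycolysis members were 2 higher and 5 lower and HIF members 3 higher and 4 lower, and PFKP, TPI1 and ARNT lost their call. Counts under about 100 per sample, as for ALDOC, ANKRD37, CA12, P4HA3, PDK3, PDK4, PFKFB4 and SLC2A3, limit the precision of those members.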
